A study of Mus musculus with 6 samples.

Results

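Poly(A)-binding proteins and the proteins that regulate them were followed as mRNAs through 2 immunoprecipitations (IPs) of RNA-bound protein and the RNA that went into them. The 5 genes were Pabpc1, Pabpc4, Pabpn1, Paip1 and Paip2, and every non-control probe that the array design assigns to one of these names was taken, which gave 13 of 41174 probes and 5 of 27677 gene names. Pabpc1 and Pabpc4 had 2 probes each, Pabpn1 had 4, Paip1 had 3 and Paip2 had 2. Where a probe had a RefSeq accession, it led to the same gene in a RefSeq gene table. The probes made to cDNA clones rest on the name that the array design gives, which was not checked by accession. The authors' deposited table places Pabpc1 on chromosome 15, Pabpc4 on 4, Pabpn1 on 14, Paip1 on 13 and Paip2 on 18.

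Poly(A)-binding proteins coat the tail at the 3′ end of mRNAs. The cytoplasmic members, PABPC1 (called PABP1 here) and PABPC4, contact the initiation factor eIF4G and so link the tail to the cap, which aids translation and shields the tail, while PABPN1 binds tails in the nucleus as poly(A) polymerase makes them. PAIP1 binds cytoplasmic PABP and helps translation, whereas PAIP2 displaces PABP from the tail and from eIF4G and represses it. PABPC1 also limits its own translation by binding an A-rich stretch in its own mRNA, and DAZL, an RNA-binding protein of germ cells, recruits PABP to the mRNAs that it binds.

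The cells were called in vitro primordial germ cells (PGCs) and came from mouse Dazl-GFP-V5 embryonic stem cells, derived from the V6.5 line on a mixed C57BL/6 129SV background, which had been freed of feeder cells and differentiated for 12 days. All groups carried the tagged Dazl. After ultraviolet crosslinking, RNA was recovered with an antibody to PABP1 or with an antibody to GFP, which takes the tagged DAZL, and total RNA without an antibody served as input. Each of the 3 groups had 2 one-colour arrays, and the labels leave unsaid whether separate cultures gave them, so a p-value here reflects spread between arrays that may be technical. An IP with an unrelated antibody was not analysed here.

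Slide 1 held 4 arrays, the pair of input arrays with replicate 1 of the PABP1 IP and replicate 2 of the GFP IP, and slide 2 held the other IP arrays. Between 41.5% and 52.6% of spots were well above background and 0 spots were saturated, and replicates correlated at 0.980 to 0.991 across probes. Levels are given as multiples of the array's own 75th percentile signal, and a level is never set against that of another probe. Dazl mRNA, read by its brighter probe, was 13.8-fold higher in the GFP IP than in the input (log2 difference 3.78 ± 0.27 SE, limma, adjusted p = 0.00147) and 3.49-fold lower in the PABP1 IP (adjusted p = 0.00382). Its other probe gave 5.44-fold higher (adjusted p = 0.00314) and a log2 difference of -0.73 (adjusted p = 0.0976). Of 9 germ cell markers on the array, 8 were well above background on both input arrays, and so were 5 of 5 embryonic stem cell, 5 of 6 heart muscle, 5 of 5 fibroblast, 1 of 6 visceral endoderm and 2 of 5 blood and endothelium markers. Afp, Ttr, Apoa1, Apob, Myh6, Cdh5 and Kdr were well above background on 0 arrays. The summed level of the heart muscle markers was 35.1 to 37.8 in the input, 80.8 to 87.1 in the PABP1 IP and 13.2 to 14.6 in the GFP IP. Of the 5 tested, only Myl7 was higher in the PABP1 IP than in the input (log2 1.54), with Tnni3 lower (-1.46). That of the fibroblast markers was 63.9 to 93.8, 81.1 to 89.2 and 23.4 to 44.5, and that of the germ cell markers 119 to 121, 306 to 331 and 146 to 159, in the same order. Of 8 tested germ cell markers, 4 were higher and 2 lower in the PABP1 IP against the input. The higher ones included Pou5f1 and Ifitm3, which made up most of the sum there. Between the IPs 4 were higher and 3 lower in the GFP IP. The embryonic stem cell markers summed to 424 to 439, 303 to 326 and 538 to 540. Klf4 made up most of that sum. In the PABP1 IP against the input Klf4 was lower (log2 -0.76), Nanog was higher (0.77), and 3 of the 5 did not pass. The part that these cells had in the results below was not tested. The IPs and the input are RNA fractions of the same kind of culture, so a difference between their sums does not measure numbers of cells. Within the input, fewer cells of a type and less RNA per cell cannot be told apart.

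Of the 13 probes, 12 passed the filter on dim probes (both arrays of some group well above background) and were tested among 21061 such probes. In the GFP IP against the input, 8 of the 12 were higher and 1 was lower at an adjusted p under 0.05 (limma), where 53.2% of all tested probes passed, 20.7% higher and 32.4% lower. All tested Paip1 and Paip2 probes and 3 of 4 Pabpn1 probes made up the 8, and no Pabpc1 or Pabpc4 probe passed. In the PABP1 IP against the input, 4 of 12 were higher (both Paip2 probes and 2 Paip1 probes), a share near the 30.8% of all tested probes, and 1 was lower (a Pabpn1 probe) beside 23.9% (54.7% in either direction). In the GFP IP against the PABP1 IP, 7 were higher (all 3 Paip1 and all 4 Pabpn1 probes) and 1 was lower (a Paip2 probe), beside 24.4% and 38.4% (62.8% in either direction). The arrays of the compared groups did not overlap for 10, 9 and 10 of the 12 probes, where this held for 81.9%, 78.5% and 81.2% of all tested probes.

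The median log2 difference of the 12 probes was 1.11 in the GFP IP against the input, 0.41 in the PABP1 IP against the input and 0.68 in the GFP IP against the PABP1 IP. Over all tested probes the medians were -0.38, 0.13 and -0.45, so the 12 lay 1.49, 0.28 and 1.14 above them, a distance that no constant scaling of an array can move. Paip1 and Pabpn1 gave 7 of the 12 probes, and with 1 probe per gene, the brightest, the 5 genes lay 1.61, 0.25 and 0.19 above the medians of all genes. By that reading 3 of the 5 genes passed in the GFP IP against the input, 2 in the PABP1 IP against the input and 2 between the IPs. All of these were on the higher side. Of all 14930 genes read so, 17.8%, 30.4% and 21.5% were higher, and 54.4%, 53.6% and 63.4% passed in either direction. The sign of the GFP IP against the PABP1 IP did depend on the scaling. Scaling arrays to their spike-in controls moved the median of all probes by 1.02, 2.26 and -1.24 in the 3 comparisons. Then 1 of the 12 probes was higher and 5 were lower in the GFP IP than in the PABP1 IP. In the PABP1 IP against the input 11 of 12 were higher. At that scaling most of all tested probes were lower between the IPs (median -1.70) and higher in the PABP1 IP against the input (median 2.39). The last section gives the counts. The results below use the 75th percentile unless another scaling is named, and the number of alternatives counts other scalings, background corrections, filters, slide or replicate terms and left-out arrays.

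**Figure D1:**
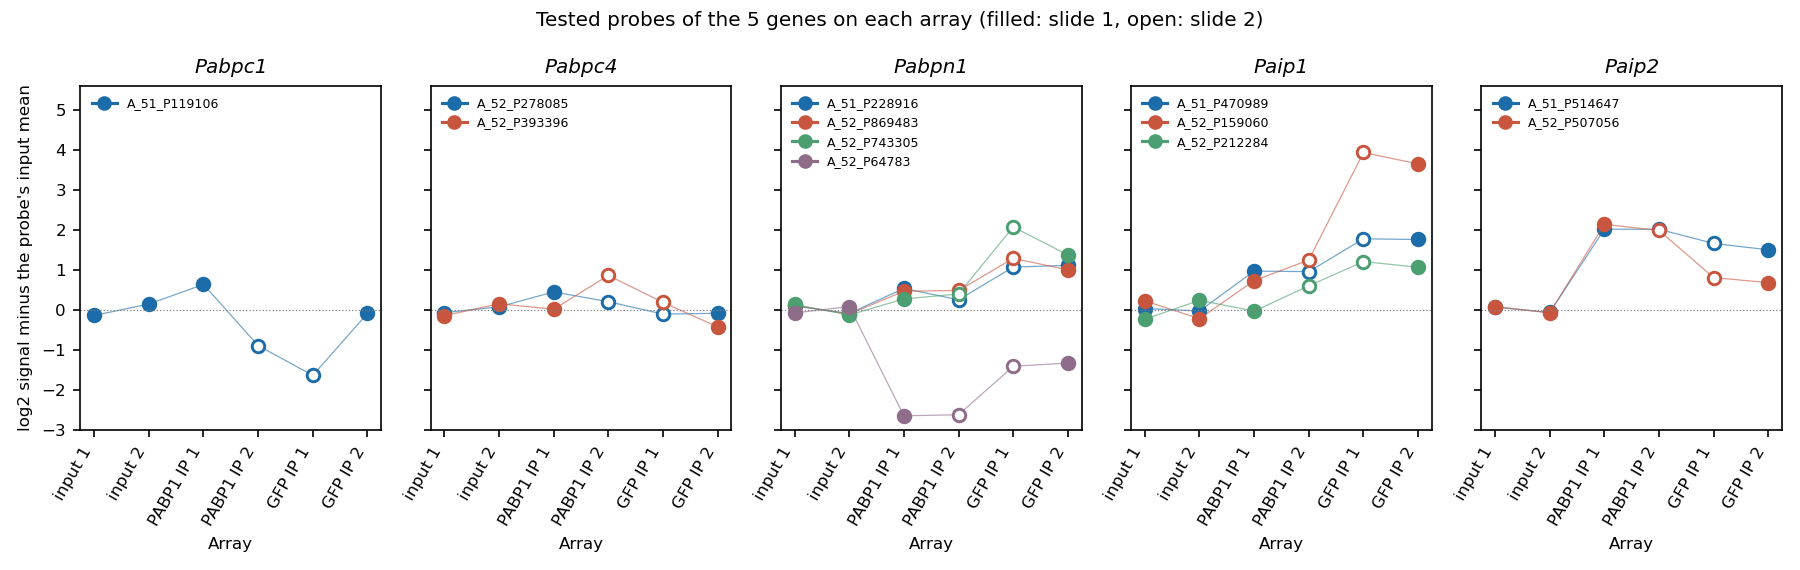
Each panel holds 1 gene and plots the log2 signal of its tested probes on the 6 arrays, minus the mean of that probe on the 2 input arrays, with filled points for slide 1 and open points for slide 2. Paip1, Paip2 and 3 of 4 Pabpn1 probes lie above their input level on both GFP IP arrays, 1 Pabpn1 probe lies below it in both IPs, and Pabpc1 falls on the slide 2 array of each IP.

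**Figure D2:**
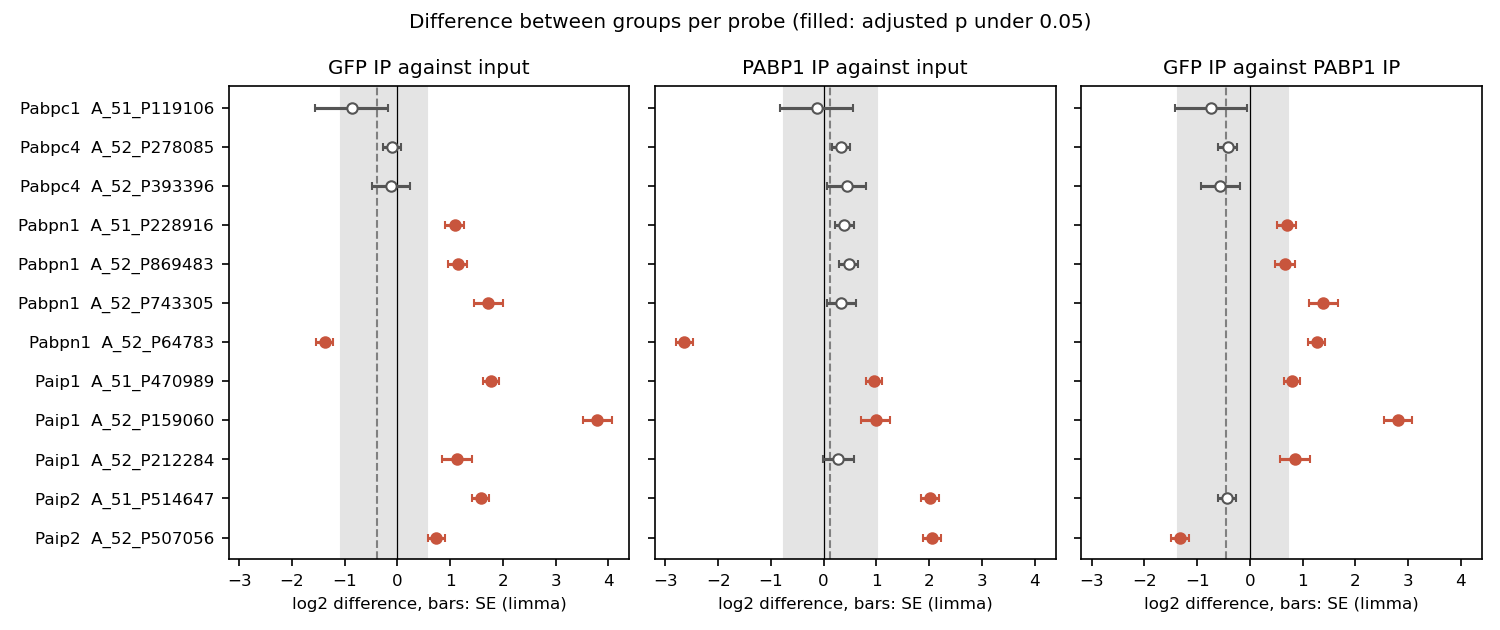
Log2 difference of each tested probe in the 3 comparisons, with its standard error from limma (2 arrays per group); filled points passed an adjusted p of 0.05, and the dashed line and grey band give the median and the quartiles of all 21061 tested probes. The GFP IP against input holds 8 filled points above 0, the PABP1 IP against input 4, and the GFP IP against PABP1 IP 7.

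Paip2, the inhibitor of PABP, was the member that stood furthest above the input in the PABP1 IP, and it was also higher in the GFP IP than in the input. Probe A_51_P514647 read 17.8 and 16.2 times the 75th percentile in the input, 68.6 and 68.5 in the PABP1 IP, and 53.5 and 48.0 in the GFP IP. Probe A_52_P507056 read 18.2 and 16.3 in the input, 75.9 and 68.2 in the PABP1 IP, and 30.1 and 27.6 in the GFP IP. With both probes, every IP array stood above both input arrays, and no group overlapped another.

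By A_51_P514647, Paip2 was 4.04-fold higher in the PABP1 IP than in the input (log2 2.02 ± 0.16, adjusted p = 0.000998), and by A_52_P507056 4.17-fold higher (2.06 ± 0.17, adjusted p = 0.00101). These 2 calls held in 20 of 20 and 19 of 19 alternatives, with log2 differences from 1.53 to 4.32. In the GFP IP against the input the probes gave unlike sizes, 2.99-fold (1.58 ± 0.16, adjusted p = 0.00227) and 1.67-fold (0.74 ± 0.17, adjusted p = 0.0168). The smaller of these missed the threshold without input replicate 1, without input replicate 2 and without GFP IP replicate 1 (adjusted p 0.0717, 0.104 and 0.0759), and within slide 1 (0.68, adjusted p = 0.0521), with a range of 0.000202 to 0.104 over its alternatives. In every test within slide 1 each IP has 1 array, which is assumed to vary like the input arrays.

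The GFP IP against the PABP1 IP is where the Paip2 probes parted. A_52_P507056 was 2.50-fold lower in the GFP IP (-1.32 ± 0.17, adjusted p = 0.00184), and it kept that sign in 20 of 20 alternatives, though after cyclic loess the difference was -0.39 (adjusted p = 0.0602, the highest of the alternatives). A_51_P514647 gave -0.44 ± 0.16 (adjusted p = 0.0634), which passed on the lower side with spike-in scaling (-1.68, adjusted p = 0.0036), the filter on all 6 arrays (0.0412), slide as a fixed or random block (0.0399 and 0.0311) or an intensity trend (0.0301). It passed on the higher side after quantile normalization (0.48, adjusted p = 0.0347) and cyclic loess (0.54, adjusted p = 0.0264), and the highest adjusted p was 0.954. The order of the 2 IPs for Paip2 by this probe thus depended on the scaling.

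Paip1, the PABP-binding protein that helps translation, was higher in the GFP IP than in the input with each of its 3 probes. Probe A_51_P470989 read 1.14 and 1.10 times the 75th percentile in the input, 2.19 and 2.17 in the PABP1 IP and 3.84 and 3.79 in the GFP IP, so the groups formed 3 steps with little spread. Probe A_52_P159060, made to a cDNA clone, read 0.171 and 0.126 in the input, 0.243 and 0.348 in the PABP1 IP, and 2.25 and 1.84 in the GFP IP, and it was well above background on 1 of the 2 input arrays. Probe A_52_P212284 read 0.217 and 0.301, 0.250 and 0.387, and 0.589 and 0.535 in the same order, with input and PABP1 IP overlapping.

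Against the input, the GFP IP by A_51_P470989 was 3.40-fold higher (log2 1.77 ± 0.15, adjusted p = 0.00172) and A_52_P159060 13.9-fold higher (3.79 ± 0.27, adjusted p = 0.00147), and both passed in all their alternatives (20 of 20 and 18 of 18). With 1 of its 2 input arrays not well above background, the size of the latter is uncertain, and with normexp background correction it was 1.63 on the log2 scale. A_52_P212284 was 2.20-fold higher (1.13 ± 0.29, adjusted p = 0.0232). That call was lost without input replicate 1, GFP IP replicate 1 or GFP IP replicate 2 (adjusted p 0.122, 0.0908 and 0.0598), and with normexp the difference was -0.01 (adjusted p = 0.947, the highest of its alternatives).

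Paip1 was also higher in the PABP1 IP than in the input by A_51_P470989, 1.95-fold (0.96 ± 0.15, adjusted p = 0.00457), in 20 of 20 alternatives. A_52_P159060 gave 1.98-fold (0.99 ± 0.27, adjusted p = 0.0286), a call that did not hold without input replicate 1, input replicate 2 or PABP1 IP replicate 2 (adjusted p 0.0516, 0.146 and 0.109), nor with normexp (-0.08, adjusted p = 0.714), the median of all probes as the scale (0.0531), no filter on dim probes (0.0837), within slide 1 (0.0892) or with the replicate number as a block (0.0628). A_52_P212284 gave 0.28 ± 0.29 (adjusted p = 0.449). Against the PABP1 IP, the GFP IP was 1.75-fold higher by A_51_P470989 (0.81 ± 0.15, adjusted p = 0.00667), but spike-in scaling turned this to -0.44 (adjusted p = 0.471, the highest of its alternatives). With no filter on dim probes the call was lost (adjusted p = 0.0534). By A_52_P159060 it was higher by 2.81 ± 0.27 on the log2 scale (adjusted p = 0.000857), past the threshold in 19 of 19 alternatives, spike-in scaling included. A_52_P212284 gave 0.85 ± 0.29 (adjusted p = 0.0469), which passed in 11 of 20 alternatives, was lost on leaving out any one array except PABP1 IP replicate 2, and became -0.39 with spike-in scaling (adjusted p 0.0119 to 0.522).

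Pabpn1, the nuclear poly(A)-binding protein, was higher in the GFP IP than in the input by 3 of its 4 probes. Probe A_51_P228916 read 56.3 and 49.6 times the 75th percentile in the input, 76.5 and 62.8 in the PABP1 IP, and 111 and 114 in the GFP IP. Probe A_52_P869483, to the same RefSeq transcript, read 43.7 and 37.5, 55.9 and 56.6, and 98.7 and 81.0. Both had the order input, PABP1 IP, GFP IP with no overlap. Probe A_52_P743305, to a cDNA clone, read 6.05 and 5.04, 6.67 and 7.26, and 23.2 and 14.3. The other clone probe, A_52_P64783, ran another way, with 5.72 and 6.41 in the input, 0.962 and 0.979 in the PABP1 IP, and 2.27 and 2.40 in the GFP IP.

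Against the input, the GFP IP by the first 3 of these probes was 2.13-fold (log2 1.09 ± 0.18, adjusted p = 0.0066), 2.21-fold (1.14 ± 0.19, adjusted p = 0.00607) and 3.30-fold higher (1.72 ± 0.28, adjusted p = 0.00581). A_51_P228916 reached an adjusted p of 0.05003, just over the threshold, without input replicate 2, which was the highest of its 19 alternatives, and the other pair passed in 19 of 19. A_52_P64783 was 2.59-fold lower (-1.37 ± 0.16, adjusted p = 0.00272). Scaled to the median of all probes or to the spike-ins, that difference was -0.81 (adjusted p = 0.0517) and -0.36 (adjusted p = 0.672, the highest of its alternatives).

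The PABP1 IP against the input showed the same split. A_51_P228916, A_52_P869483 and A_52_P743305 gave 0.39 ± 0.18, 0.47 ± 0.19 and 0.33 ± 0.28, none past the threshold (adjusted p 0.125, 0.0811 and 0.355). They passed on the higher side in 2, 3 and 2 of 19 alternatives. With spike-in scaling set aside these were 1, 2 and 1 of 18, with lowest adjusted p values of 0.00183, 0.002 and 0.0459 (limma). A_52_P64783 was 6.24-fold lower (-2.64 ± 0.16, adjusted p = 0.000855), the lowest difference of any member probe, and it passed in 18 of 19 alternatives, spike-in scaling being the exception (-0.38, adjusted p = 0.498). This probe was designed to another clone than A_52_P743305, and since probe sequences were not used here, which transcript of the locus each one reads is not known. In the GFP IP against the PABP1 IP all 4 probes were higher, by 0.70 ± 0.18, 0.67 ± 0.19, 1.39 ± 0.28 and 1.27 ± 0.16 on the log2 scale (adjusted p 0.0209, 0.0257, 0.00817 and 0.00176). With spike-in scaling these were -0.54, -0.57, 0.15 and 0.02, none past the threshold. The first pair also missed it with no filter (adjusted p 0.099 and 0.113) and within slide 1 (0.0959 and 0.122), the first without GFP IP replicate 1, GFP IP replicate 2 or PABP1 IP replicate 2 (0.0672 to 0.0776), and the second without any one array except GFP IP replicate 2 (0.053 to 0.113).

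Pabpc4, the inducible cytoplasmic PABP, passed the test in none of the 3 comparisons. Probe A_52_P278085 read 19.7 and 21.8 times the 75th percentile in the input, 28.2 and 23.8 in the PABP1 IP and 19.2 and 19.4 in the GFP IP, so the PABP1 IP arrays were the highest and the GFP IP arrays the lowest without overlap. Its log2 differences were -0.10 ± 0.17 in the GFP IP against the input (adjusted p = 0.649), 0.32 ± 0.17 in the PABP1 IP against the input (adjusted p = 0.17) and -0.42 ± 0.17 between the IPs (adjusted p = 0.082). Probe A_52_P393396 was dim, at 0.426 and 0.524 in the input, 0.477 and 0.856 in the PABP1 IP and 0.537 and 0.351 in the GFP IP, with all groups overlapping. Its differences were -0.12 ± 0.36, 0.44 ± 0.36 and -0.56 ± 0.36 (adjusted p 0.791, 0.358 and 0.225). In the PABP1 IP against the input, A_52_P278085 passed on the higher side in 2 of 20 alternatives and A_52_P393396 in 1 of 19. With spike-in scaling set aside these were 1 of 19 (adjusted p = 0.0103, limma) and 0 of 18. With slide as a fixed block, the GFP IP was lower than the PABP1 IP by both probes (adjusted p 0.0492 and 0.0339, over ranges of 0.00387 to 0.978 and 0.00175 to 0.822), but after quantile normalization and cyclic loess A_52_P278085 had the opposite sign (0.22 and 0.38, adjusted p 0.288 and 0.1).

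Pabpc1, which encodes the protein that the PABP1 antibody takes, differed between slides within each IP. Its tested probe, A_51_P119106, read 374 and 456 times the 75th percentile on the input arrays, both on slide 1. The PABP1 IP array on slide 1 read 641 and that on slide 2 read 222, and the GFP IP array on slide 1 read 388 and that on slide 2 read 132. On each slide the GFP IP array was the lower of the 2 IP arrays, but the slide 2 array of each IP lay below every slide 1 array, so all 3 groups overlapped pairwise.

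Without regard to slide, Pabpc1 did not pass the test in any comparison. The log2 difference was -0.87 ± 0.69 in the GFP IP against the input, -0.13 ± 0.69 in the PABP1 IP against the input and -0.74 ± 0.69 in the GFP IP against the PABP1 IP (limma, adjusted p 0.322, 0.888 and 0.381). Within slide 1 the GFP IP was -0.09 and the PABP1 IP 0.63 from the input mean (adjusted p 0.743 and 0.0778). Between the IPs the difference was -0.73 within slide 1 and -0.75 within slide 2. With slide as a fixed block, the PABP1 IP was higher than the input (0.64, adjusted p = 0.0311) and the GFP IP lower than the PABP1 IP (-0.74, adjusted p = 0.0114), while the GFP IP against the input gave -0.10 (adjusted p = 0.658). Over all alternatives the adjusted p ran from 0.000142 to 0.993 for the PABP1 IP against the input and from 0.000578 to 0.975 between the IPs, and quantile normalization and cyclic loess gave the latter the opposite sign (0.68 and 0.74, adjusted p 0.39 and 0.344).

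The slide 2 array of the PABP1 IP was 1.53 below that of slide 1 on the log2 scale for Pabpc1, and that of the GFP IP 1.55 below, where the 2 input arrays, on the same slide, differed by 0.29. This drop was known before the counts that follow were made, so they describe its size and are not a test of it. Of 274 other probes within a log2 distance of 1 from its mean signal, 6 fell further between slides in the PABP1 IP, 1 fell further in the GFP IP and 0 in both. The medians of those probes were -0.37 and 0.04. Over 21051 probes with a value on all arrays, 745 fell by more than 1 in both IPs and 220 fell further than Pabpc1 in both. Pabpc1 was read from the low-gain scan and scaled up by the software on all 6 arrays. Before any scaling, the brightest spike-in read 175500 on slide 1 and 152000 on slide 2 in the PABP1 IP. In the GFP IP it read 257000 and 163500, and on the input arrays 252000 and 265500. The Pabpc1 differences above are instead scaled to the 75th percentile. That percentile was 105 and 146 in the PABP1 IP, 163 and 158 in the GFP IP, and 63.6 and 75.4 on the input arrays, in the same order. The part of the low-gain scan and of the spike-in differences in the Pabpc1 values was not tested.

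**Figure D3:**
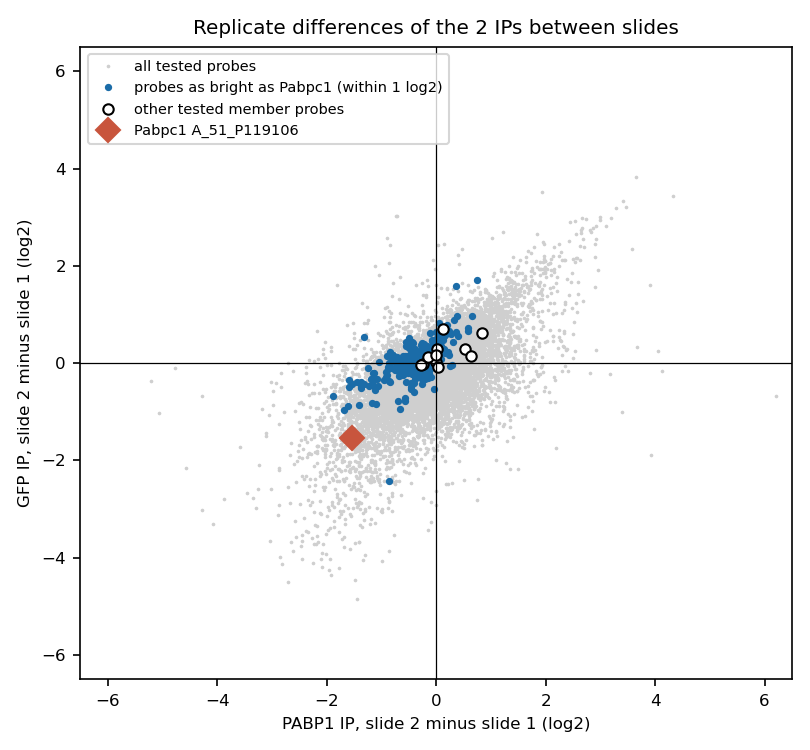
For each of the 21051 probes, the log2 signal on slide 2 minus that on slide 1 in the PABP1 IP (x axis) and in the GFP IP (y axis). Pabpc1 (diamond) lies at -1.53 and -1.55, below the 274 probes of like brightness (blue) in at least 1 of the 2 directions, and the other member probes (open circles) lie near the origin, within 0.84 on either axis.

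The second Pabpc1 probe, A_52_P204023, made to a cDNA clone, was not tested. It was well above background on 1 array, GFP IP replicate 1, with a processed signal of 20.6, and read 2.25 to 5.89 on the other arrays. Pabpc1 has close relatives in the genome, and whether they hybridise to its probes was not tested.

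Lists of genes around the members were read by 1 probe per gene, the brightest, over 14930 genes. Of these genes 17.8% were higher and 36.5% lower in the GFP IP than in the input (54.4% in all), 30.4% and 23.3% in the PABP1 IP than in the input (53.6%), and 21.5% and 41.9% in the GFP IP than in the PABP1 IP (63.4%). Among relatives of the members, 2 of 6 were tested. Paip2b, the paralogue of Paip2, was higher in both the GFP IP (log2 1.43, adjusted p = 0.0029) and the PABP1 IP (0.92, adjusted p = 0.00802) than in the input. Pabpc2, a PABP gene of the mouse testis, was higher in the PABP1 IP than in the input (1.84, adjusted p = 0.0231) and gave 0.21 in the GFP IP (adjusted p = 0.722). Of the calls of this pair in the PABP1 IP, 1 was left without input replicate 1 and 0 without input replicate 2.

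Of 14 other proteins that carry a PABP-binding motif (PAM2) or the domain that it binds (MLLE), 10 were lower and 2 higher in the PABP1 IP than in the input, with a median log2 difference of -1.09 where that of all genes was 0.14. The lower ones included Tnrc6b (-2.50), a scaffold of microRNA silencing, and Pan3 (-1.91), a subunit of a deadenylase, whose other probes gave -3.81 to -1.85 and -1.29. Mkrn1, a ubiquitin ligase, was the highest (2.73), though its other probe gave 0.29. Between the IPs, 9 of the 14 were higher and 1 lower in the GFP IP (median 1.03, all genes -0.62), among them Tnrc6c (2.44), Tnrc6a (2.38) and Larp4b (2.32). Against the input, the GFP IP had 3 higher, led by Tob1 (1.66), a recruiter of deadenylases, and 2 lower. With spike-in scaling 7 of the 14 were higher and 0 lower in the PABP1 IP than in the input. Between the IPs 1 was then higher and 4 lower in the GFP IP. Over all tested probes most were higher in the former comparison and lower in the latter at that scaling. The directions above thus hold relative to the other probes of the array.

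Of 14 translation factors that meet PABP or the cap, 3 were higher and 4 lower in the GFP IP than in the input, and 1 and 3 in the PABP1 IP. Eif4e, the cap-binding protein, was higher in the GFP IP than in the input (1.56, adjusted p = 0.00253), as was Eif4g1, the scaffold that binds PABP (1.46, adjusted p = 0.00314). The other probe of each gave 0.77 and 0.36. Eif3b (-1.94) and Eif3g (-1.57), subunits of the factor that PAIP1 contacts, were lower, and the other probe of Eif3b gave -0.16. Eif4g3, a paralogue of Eif4g1, was lower in the PABP1 IP than in the input (-1.61), and Etf1, the release factor, higher (1.22). Between the IPs 5 were higher and 5 lower in the GFP IP, where spike-in scaling gave 0 higher and 8 lower. Most of all tested probes were lower there at that scaling too.

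Among 8 proteins that share messenger ribonucleoproteins with PABP, 1 was higher and 2 lower in the GFP IP than in the input, 0 and 3 in the PABP1 IP than in the input, and 3 and 1 between the IPs. Syncrip, an hnRNP protein, was higher in the GFP IP (1.51) and lower in the PABP1 IP (-2.31) than in the input, and its 3 other probes ran from -1.98 to 0.52 in the latter. Of 20 genes of polyadenylation, mostly nuclear, 7 were higher and 4 lower in the GFP IP than in the input. The counts were 4 and 9 in the PABP1 IP, and 10 and 5 between the IPs. Tent2, a cytoplasmic poly(A) polymerase, is on this list and among the 7 (0.74). Papolg (2.18), a poly(A) polymerase, Cpsf6 (2.14), a subunit of a cleavage factor, and Zc3h14 (1.86), a nuclear poly(A)-binding zinc-finger protein, were highest in the GFP IP against the input. Papola, the main poly(A) polymerase, was higher in the PABP1 IP than in the input by its brightest probe (2.44), but its other probes gave -0.56 to 0.73. Pcf11, a termination factor, was at least 7.44-fold lower by its brightest probe, which was not well above background in the PABP1 IP. Its other probe gave -1.08 on the log2 scale. With spike-in scaling 15 of the 20 were higher and 0 lower in the PABP1 IP than in the input. Between the IPs 2 were then higher and 6 lower in the GFP IP. Over all tested probes most were higher in the former comparison and lower in the latter at that scaling.

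**Figure D4:**
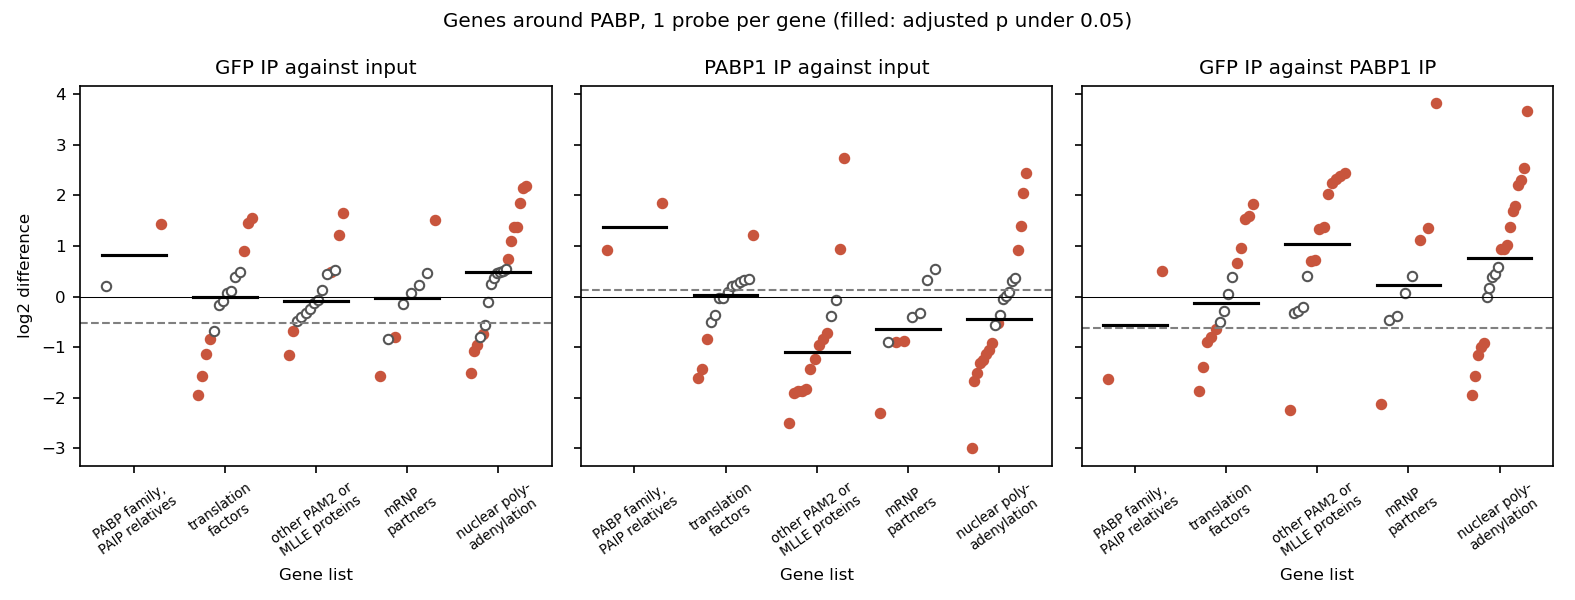
Log2 difference of each tested gene of the 5 lists in the 3 comparisons, at the 75th percentile scaling; filled points passed an adjusted p of 0.05, black bars give the list's median and the dashed line the median of all 14930 genes. In the PABP1 IP against input, 10 of the 14 PAM2 or MLLE genes lie below 0 as filled points.

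Likeness of pattern was measured as the root mean square difference over the 6 arrays, after centring each probe, among 12732 genes read by their brightest probe. The genes nearest to Paip2 were Lsm3 (0.0762), Rheb (0.0852) and Faim (0.112) on the log2 scale. Those nearest to Paip1 were Rnls (0.0515), Leprot (0.0582) and Pim3 (0.0618), and those nearest to Pabpn1 were Snrnp40 (0.0551), Lrrc40 (0.0678) and Fen1 (0.0846). Mrps25 (0.0564), Jkamp (0.062) and Dok7 (0.0675) were nearest to Pabpc4. Pabpc1 had no neighbour as close, the nearest being Vmn1r46 (0.171), Serpina1d (0.175) and Msx1 (0.177). Of all these neighbours Rnls and Serpina1d were well above background on 3 of the 6 arrays and the others on all 6.

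The authors' deposited table gives a mean and a standard error per group on a scale of its own, and its values were not rebuilt from the scanner files: across probes their log2 values correlated with the scanner values at 0.859, 0.918 and 0.909 (input, PABP1 IP, GFP IP). In the authors' deposited table Pabpc1 stood at 3864 ± 89.0 in the input, 4698 ± 26.6 in the PABP1 IP and 2793 ± 43.8 in the GFP IP (standard error as the table gives it). Those errors do not reflect the spread of the scanner values. These were 641 and 222 times the 75th percentile in the PABP1 IP, and 388 and 132 in the GFP IP. By the scanner values all groups overlapped. The 2 rows of Paip2 in the authors' deposited table that share its RefSeq accession gave 119 and 147 in the input, 304 and 417 in the PABP1 IP, and 631 and 293 in the GFP IP. By these 2 rows Paip2 was above the input in both IPs, and the rows were split on which IP was higher. Another row that the authors' deposited table names Paip2 stood at 0.336, 0.000173 and 0.112 in the same order. The scanner files give its accession another gene name, so it is not among the 13 probes. For the clone probe of Paip1, A_52_P159060, the authors' deposited table gave 1.43, 6.25 and 69.0 in the same order, and for that of Pabpn1 lower in both IPs, A_52_P64783, it gave 51.5, 5.77 and 16.3. The 2 Pabpn1 rows with its RefSeq accession gave 150 and 276 in the input and 137 and 227 in the PABP1 IP. They thus lay below the input, where the scanner values lay above it. In the GFP IP they gave 326 and 532. The Pabpc4 rows gave 1.51 and 141, 3.59 and 148, and 4.06 and 160. They were highest in the GFP IP, where the scanner means were highest in the PABP1 IP. The other Paip1 and Pabpn1 rows were highest in the GFP IP.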

How the data were processed

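The authors deposited 1 Agilent Feature Extraction 9.1.3.1 file per array, which holds spot intensity and, per the file headers, a background-subtracted processed signal with flags. The authors also deposited a table of group means and standard errors of signal, described in its header as scaled to each array's median, and a quality score that was not used here. After removal of control and outlier spots, log2 processed signals of a probe's spots were averaged, and the log2 of the array's 75th percentile was subtracted. Probes that some group measured well above background on each of its arrays (over a 0.5 share of the probe's spots) were tested with limma 3.58.1 (lmFit, eBayes) in R 4.3.3 on all 6 arrays, with group as the factor and 3 residual degrees of freedom, two-sided, Benjamini-Hochberg over 21061 probes at 0.05. Errors after ± are limma's standard errors unless named otherwise. Gene lists used each gene's brightest tested probe, and up to 3 genes per list and comparison with the largest differences past the threshold could be named, of which the text gives some; Eif4g1 in the GFP IP against the input was added after its value was seen. Symbols came from the files and from a RefSeq table (GRCm38.p6) that gave names only, with 22951 of 41174 probes matched by accession. No sequence or coordinate is printed, since the files name no build. The members and lists were chosen with earlier results of these data known. The fit was tested on simulated data. The number of arrays limits the precision.

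Deviations of same-numbered arrays correlated at 0.15 (input and PABP1 IP), -0.02 (input and GFP IP) and -0.62 (the IPs). Same-numbered IP arrays lay on different slides, so these values cannot tell whether replicate numbers pair the arrays.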

Additional observations from a re-analysis of the deposited data

How the results depend on the processing

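With 2 arrays per group, calls near the threshold turn on single arrays. Input probes near background and spots read from the low-gain scan limit the ends of the scale. Against 11194 probes past the threshold (4360 higher) in the GFP IP against the input, spike-in scaling gave 7093 (6574 higher), no filter 21803 (3826 higher), the median of all probes as the scale 8017 (5660 higher), quantile normalization 10674 (5215 higher), and leaving out an array 5691 to 11370. Against 11519 (6484 higher) in the PABP1 IP against the input, spike-in scaling gave 18020 (17595 higher) and leaving out an array 7491 to 11276. Against 13224 (5146 higher) between the IPs, spike-in scaling gave 14529 (1190 higher), the median of all probes 11212 (6010 higher), quantile normalization 12469 (6108 higher) and cyclic loess 12546 (6386 higher). The cause of these shifts was not tested.

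With the replicate block the counts were 9392, 10114 and 11885, and among the members it lost the PABP1 IP call of Paip1 A_52_P159060 (adjusted p = 0.0628) and the call between the IPs of Paip1 A_52_P212284 (0.0533), and changed no other. Crossing the numbers of the IPs, chosen after seeing the data, gave 16083 between the IPs. The crossed numbers join the IP arrays of the same slide, so this was a slide block on the IPs rather than another pairing of replicates. With slide as a random block the fitted correlation within a slide was 0.47, and the main fit holds no slide term. Without probes read from the low-gain scan, also chosen after seeing the data, the 10 member probes left kept their calls.

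Signs turned as follows, in log2. In the GFP IP against the input, cyclic loess gave Pabpc1 0.0154 and Pabpc4 0.31 and 0.0449 (A_52_P278085, A_52_P393396), spike-in scaling 0.15, 0.92 and 0.89, quantile normalization 0.21 and 0.00418 (both Pabpc4), the median of all probes 0.46 and 0.44 (both Pabpc4), and normexp 0.48 (A_52_P278085, adjusted p = 0.0465) and -0.0138 (Paip1 A_52_P212284). In the PABP1 IP against the input, Pabpc1 became 0.32 (normexp), 0.0175 (median), 2.13 (spike-in), 0.64 (slide fixed), 0.36 (slide random) and 0.63 (within slide 1). There, quantile normalization gave -0.0103 (Pabpc4 A_52_P278085) and -0.14 (Pabpn1 A_51_P228916), cyclic loess -0.074, -0.11 and -0.0154 (the same and Pabpn1 A_52_P869483), normexp -0.0832 and -0.24 (Paip1 A_52_P159060, A_52_P212284), and slide 1 alone -0.0346 (A_52_P212284). Between the IPs, quantile normalization and cyclic loess gave 0.68 and 0.74 (Pabpc1), 0.22 and 0.38 (Pabpc4 A_52_P278085) and 0.48 and 0.54 (Paip2 A_51_P514647), and spike-in scaling -0.54 and -0.57 (Pabpn1), -0.44 and -0.39 (Paip1). Leaving out an array, Pabpc1 ran from -0.90 to 0.63 (PABP1 IP against input) and -1.51 to 0.0399 (between the IPs), Pabpc4 A_52_P393396 from -0.43 to 0.18 (GFP IP against input) and Paip1 A_52_P212284 from -0.0346 to 0.60 (PABP1 IP against input).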
